A study of Homo sapiens with 9 samples.

Results

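The 46 genes described here encode the proteins that license replication origins, unwind DNA and copy the genome in S phase, together with clamp loaders, fork factors, chromatin assembly factors and a uracil glycosylase. They were chosen by symbol from a list of replication genes, and all 46 were found among the 17637 genes of the table. Their levels were compared in KOPTK1, a human cell line of acute lymphoblastic leukaemia of the T lineage (T-ALL), by poly(A)+ RNA sequencing. In the 3 libraries of the shDHX15_MYC group, cells carried a lentiviral short hairpin RNA (shRNA) against DHX15 together with an ectopic MYC coding region. In the 3 libraries of the shDHX15 group, cells carried the DHX15 hairpin without added MYC. In the 3 libraries of the shControl group, cells carried a control hairpin, and the table's column names point to GFP as its target. All 3 groups were derived from the same cell line and labelled with the same wild-type genotype. By the sample titles, MYC was introduced here only together with the DHX15 hairpin, in cells in which DHX15 was also depleted. The columns name 1 DHX15 hairpin, and no group with MYC and the control hairpin was among the samples. The labels do not say whether the 3 libraries of a group came from separate cultures, so the p-values measure the spread between these libraries, which may be technical.

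DHX15 is an RNA helicase of the DEAH-box family with a role in pre-mRNA splicing, and the study asked how far MYC, a transcription factor of growth and proliferation, acts downstream of it. Replication starts when the origin recognition complex, CDC6 and CDT1 load the MCM2-7 helicase onto DNA in G1. In S phase CDC45 and the GINS complex activate that helicase, polymerase alpha-primase lays down primers, and polymerases epsilon and delta extend them on the sliding clamp PCNA. Many of these genes are known targets of E2F transcription factors, and their mRNAs are more abundant in cycling cells than in resting ones. In bulk RNA, fewer cells in S phase and less RNA per cell cannot be told apart.

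The libraries held 42134302 to 43371973 counts in the shDHX15_MYC group, 48644528 to 59688062 in the shDHX15 group and 45672922 to 50726272 in the shControl group. Levels are given as CPM, counts scaled to a common library size with the trimmed mean of M-values (TMM) in edgeR, and 3 counts correspond to 0.0519 to 0.0708 CPM. DHX15 had 197, 196 and 192 CPM in shDHX15_MYC cells, 182, 162 and 156 CPM in shDHX15 cells and 284, 278 and 278 CPM in shControl cells. MYC averaged 7098 CPM in shDHX15_MYC cells, 86.9 CPM in shDHX15 cells and 109 CPM in shControl cells (n = 3 each), and its counts in shDHX15_MYC cells include the introduced coding region. Replicate 1 of the shDHX15 group stood apart from replicates 2 and 3: their counts differed by a chi-square of 18 and 17.1 for each degree of freedom, while the value was 4.45 between replicates 2 and 3 and 2.73 to 3.23 within the other groups. Mitochondrial transcripts took 6.59 to 6.66% of counts in shDHX15_MYC cells, 3.67 to 3.87% in shDHX15 cells and 3.87 to 3.99% in shControl cells. The T-lineage markers CD3E, LCK and CD7 were present in every library, and 9 of 11 listed markers passed the filter. Their sum was 1595 to 1620 CPM in shDHX15_MYC cells, 2447 to 2497 CPM in shDHX15 cells and 2873 to 2982 CPM in shControl cells. Erythroid markers summed to at most 0.111 CPM in any library. Myeloid markers summed to 4.37 to 5.20 CPM in shDHX15_MYC cells, 0.229 to 0.594 CPM in shDHX15 cells and 0.363 to 0.867 CPM in shControl cells. Markers of adherent and epithelial cells summed to 20.8 to 22.2 CPM in shDHX15_MYC cells, 7.05 to 7.61 CPM in shDHX15 cells and 8.45 to 9.16 CPM in shControl cells. B-lineage markers, nearly all CD79A, summed to 99.1 to 104 CPM in shDHX15_MYC cells, 36.7 to 39.0 CPM in shDHX15 cells and 40.2 to 41.1 CPM in shControl cells. The part of these differences in the results below was not tested.

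All 46 genes were well measured. Their lowest count in any library was 830, and their mean level ran from 4.48 on the log2 CPM scale for ORC5 to 9.61 for MCM7. Per kilobase of exon, the scale on which genes can be compared, shControl cells held from 8.51 CPM per kb of ORC5 to 489 CPM per kb of PCNA. Summed over the 46 genes, the level was 7877 to 8045 CPM in shDHX15_MYC cells, 8866 to 8946 CPM in shDHX15 cells and 9147 to 9162 CPM in shControl cells. As a plain share of all counts the same genes took 0.877 to 0.891% in shDHX15_MYC cells, 0.861 to 0.867% in shDHX15 cells and 0.847 to 0.849% in shControl cells, so the order of the summed level turned round with the scaling.

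The promoters of these genes were read for the sequences that E2F factors and MYC are known to bind, because MYC was added here and E2F factors are known regulators of many of these genes. A RefSeq window of 250 bases before to 50 bases after the transcription start (build GRCh38.p14) was at hand for 39 of the 46 genes. In these windows the 8-letter E2F motif (TTTGGCGC, TTTCGCGC, TTTCCCGC or TTTGCCGC, on either strand) was present for 20 genes, 51.3% of the 39, compared with 6.14% of the genes tested. Counted by window, it was present in 41.7% of the members' windows, 4.47% of the windows of genes tested and 3.31% of all 35116 windows. The MYC motif CACGTG, which reads the same on both strands and overlaps no E2F match in the stretches shown here, was present for 8 of the 39 genes (20.5%), compared with 12.2% of the genes tested, and by window in 16.7% of the members', 8.94% of those of genes tested and 7.26% of all. Of the members with a window, the E2F motif was present for 7 of the 12 that rose with MYC, 10 of the 22 that fell and 3 of the 5 without a call, and CACGTG for 4, 3 and 1 of them. Such a match describes the letters of the window and does not show that a factor binds there. The stretches before the start of 3 genes are shown, with motif letters in capitals: POLA1, which was higher with MYC (chrX:24693668-24693917, plus strand), MCM6, which was lower with MYC (chr2:135876444-135876693, minus strand), and CHAF1A, which was higher with MYC (chr19:4402390-4402639, plus strand). MCM6 and CHAF1A were chosen for display after their values were seen, since none of the 250 bases lies in an exon of GENCODE release 29 and a motif is present.
POLA1: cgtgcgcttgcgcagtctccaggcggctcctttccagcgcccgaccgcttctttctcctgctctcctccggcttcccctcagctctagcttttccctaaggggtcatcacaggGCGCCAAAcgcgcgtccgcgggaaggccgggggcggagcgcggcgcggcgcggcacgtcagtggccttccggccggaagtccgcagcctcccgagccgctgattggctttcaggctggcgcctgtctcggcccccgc
MCM6: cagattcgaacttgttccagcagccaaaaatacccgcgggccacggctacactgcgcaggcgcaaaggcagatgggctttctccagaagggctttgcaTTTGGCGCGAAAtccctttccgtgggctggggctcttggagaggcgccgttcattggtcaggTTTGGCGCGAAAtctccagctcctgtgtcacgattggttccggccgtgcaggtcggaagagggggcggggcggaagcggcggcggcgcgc
CHAF1A: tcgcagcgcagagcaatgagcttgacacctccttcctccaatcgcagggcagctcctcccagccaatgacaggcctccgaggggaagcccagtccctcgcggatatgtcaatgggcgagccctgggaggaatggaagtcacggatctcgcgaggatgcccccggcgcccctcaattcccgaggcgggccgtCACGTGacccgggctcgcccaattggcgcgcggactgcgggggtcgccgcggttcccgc
The capitals mark GCGCCAAA beginning 137 bases before the start of POLA1. In MCM6 they mark overlapping matches to TTTGGCGC and GCGCGAAA beginning 152 and 148 bases before the start, and the same arrangement again at 90 and 86 bases. In CHAF1A they mark CACGTG beginning 59 bases before the start.

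The first comparison asked how replication gene levels differ when DHX15 is depleted. In shDHX15 cells relative to shControl cells, ATAD5, the factor that unloads PCNA from DNA, was 1.95-fold higher and the GINS subunit gene GINS1 was 1.64-fold higher, and no other member changed by more than 1.30-fold. By edgeR's quasi-likelihood test at a Benjamini-Hochberg adjusted p below 0.05, 10 of 46 members were higher, 14 were lower and 22 had no call. Over all 15309 genes tested the same calls were made for 22% (higher) and 23% (lower), and for 28.2% and 27.6% of the expressed genes, those whose mean log2 CPM reached 3, so the members' shares of 21.7% and 30.4% lie near the background. The median log2 fold change was -0.02 over the members and 0.0045 over those 10328 expressed genes. Groups did not overlap for 27 members, against 51.1% of all genes tested. With TMM no member reached a 2-fold change, which 0.0678% of expressed genes passed upward and 0.232% downward. With total counts in place of TMM factors, 20 members were higher and 11 lower, since that scaling moved the median of all genes to 0.06. CDT1, MCM4, RFC3, RFC5, RPA1, POLA1, POLD1, POLE, LIG1 and CHAF1A were then called higher (0.08 to 0.17), and CDC45, POLD2 and TIMELESS lost their call. ATAD5 then passed 2-fold (1.03). The share of expressed genes past 2-fold was not taken with that scaling in any comparison. Without replicate 1 of the shDHX15 group, 14 were higher and 18 lower.

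The second comparison added MYC to the depleted cells. DHX15 itself also differed between these groups, being 1.17-fold higher in shDHX15_MYC cells than in shDHX15 cells (edgeR adjusted p = 0.000124). In shDHX15_MYC cells relative to shDHX15 cells, members moved in both directions. GINS3 rose 2.46-fold, UNG 1.99-fold, POLA1 1.75-fold, CDC6 1.70-fold and MCM7 1.67-fold, while PRIM1 fell 2.63-fold, CDT1 2.44-fold and LIG1 1.92-fold. By the edgeR test 13 of 46 members were higher, 28 were lower and 5 had no call. Of all genes tested 42.1% were called higher and 42.6% lower, and of the expressed genes 33.6% and 54.1%, so the members' shares of 28.3% and 60.9% are again close to those of expressed genes. The members' median log2 fold change was -0.26, with quartiles of -0.63 and 0.10, and that of the expressed genes was -0.20, with quartiles of -0.74 and 0.32. A change of at least 2-fold was reached by 1 member upward and 2 members downward, while 7.35% of expressed genes passed it upward and 16% downward. Ranges did not overlap for 41 members, against 85% of all genes tested. Scaling by total counts, which moved the median of all genes by 0.20 on the log2 scale, gave 18 members higher and 21 lower. The calls of ORC1, ORC3, ORC6, RFC3, RFC4 and RPA1 were lost with it. UNG (1.19) and POLA1 (1.00) then also passed 2-fold upward.

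The third comparison set shDHX15_MYC cells against shControl cells, and it shares its libraries with the other 2 comparisons. CDC6 was 2.2-fold higher, GINS3 1.97-fold, POLA1 1.82-fold, MCM7 1.61-fold, UNG 1.56-fold and CLSPN 1.53-fold, while PRIM1 was 2.79-fold lower, CDT1 2.34-fold, RPA3 1.99-fold and TIMELESS 1.91-fold. By the edgeR test 13 members were higher, 29 lower and 4 had no call. The background was 42% higher and 42.5% lower over all genes tested, and 34.2% and 53.9% over the expressed genes. A change of at least 2-fold was reached by 1 member upward and 2 downward, and by 7.37% and 16.1% of expressed genes. The median log2 fold change was -0.21 over the members and -0.19 over the expressed genes, and ranges did not overlap for 43 members, against 87.2% of all genes tested. With total counts the split became 22 higher and 19 lower, and the median of all genes lay at 0.28. GINS3 (1.24) and POLA1 (1.13) then also passed 2-fold upward, and CDT1 (-0.96) no longer passed it downward.

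**Figure D1:**
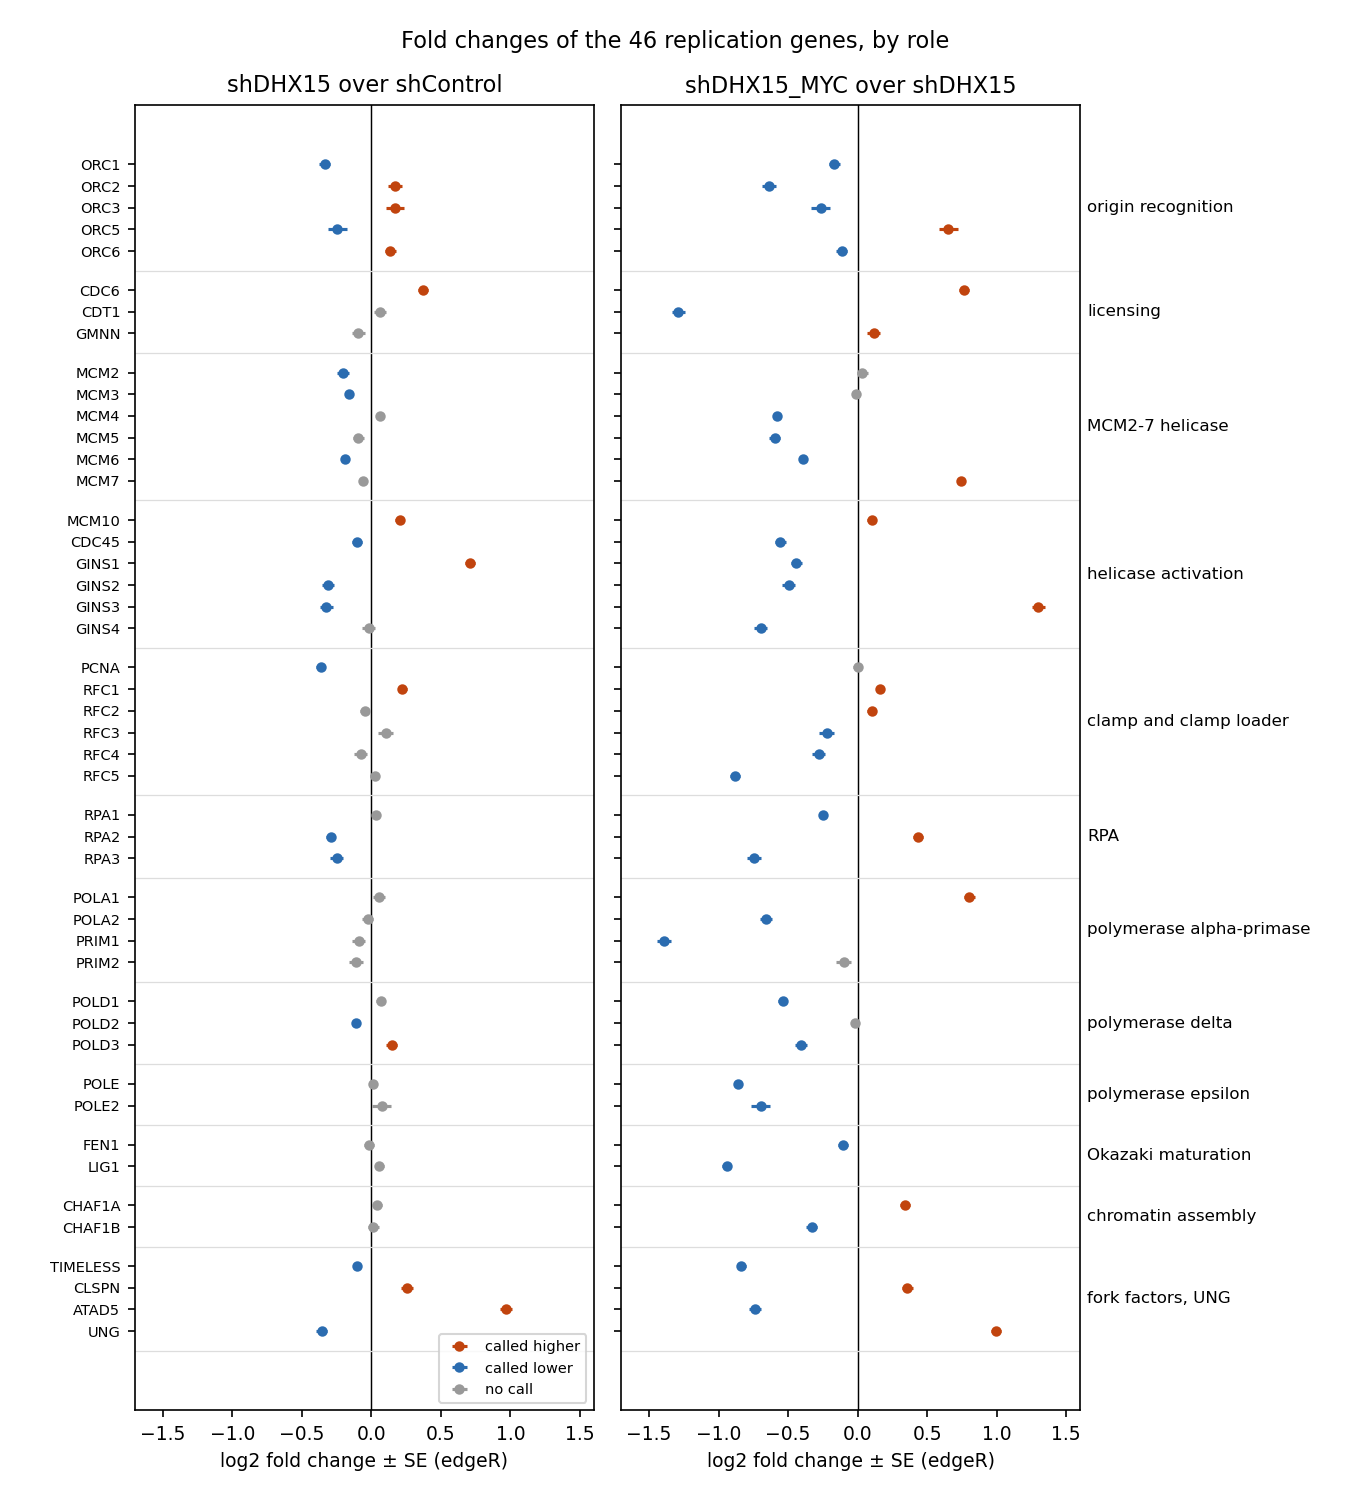
Log2 fold change of each of the 46 genes, grouped by role, for shDHX15 over shControl (left) and shDHX15_MYC over shDHX15 (right); points are edgeR estimates, bars are 1 SE, and colours mark genes called higher, lower or not called. With DHX15 depletion the values run from -0.36 (PCNA) to 0.97 (ATAD5), and with MYC from -1.39 (PRIM1) to 1.30 (GINS3).

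**Figure D2:**
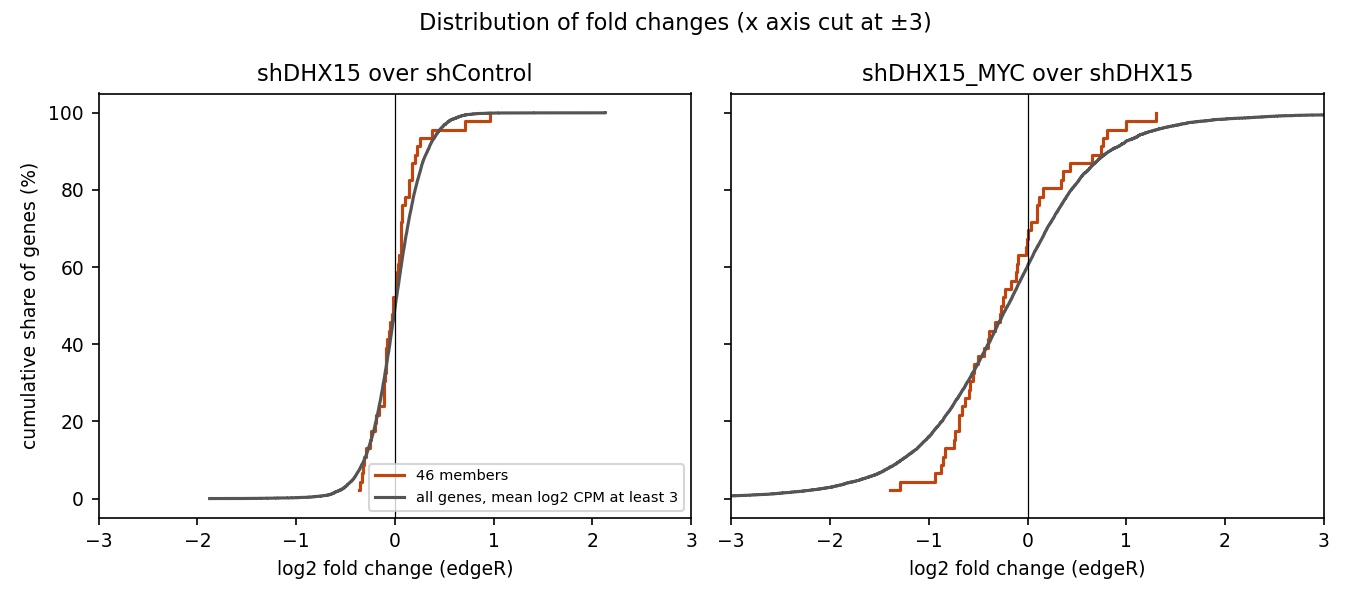
Cumulative share of genes (%) against the log2 fold change for the 46 members and for the 10328 expressed genes (mean log2 CPM of 3 or more), for shDHX15 over shControl (left) and shDHX15_MYC over shDHX15 (right). The curves run close together near their medians, -0.02 for the members and 0.0045 for the expressed genes on the left and -0.26 and -0.20 on the right.

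Of the 5 origin recognition genes among the members, whose products mark the sites where replication can begin, 3 were higher and 2 lower in shDHX15 cells than in shControl cells. ORC1 (chr1:52372829-52404459), the subunit that is degraded as S phase begins, had 80.5, 75.8 and 79.3 CPM in shDHX15_MYC cells, 90.8, 90.0 and 83.5 CPM in shDHX15 cells and 111, 114 and 109 CPM in shControl cells. The shControl libraries were the highest, with no overlap between any pair of groups. ORC1 fell in shDHX15 cells against shControl cells (log2 fold change -0.34 ± 0.04 SE, edgeR adjusted p = 3.33e-06). ORC5 had 27.0, 29.6 and 27.0 CPM in shDHX15_MYC cells, 19.2, 16.6 and 17.6 CPM in shDHX15 cells and 22.1, 20.5 and 20.5 CPM in shControl cells. It was the only one of the 5 to rise with MYC relative to shDHX15 cells (0.65 ± 0.07 SE, edgeR adjusted p = 7.33e-08). ORC2 was higher in shDHX15 cells than in shControl cells (0.17) and fell with MYC (-0.64), and ORC3, whose shDHX15 and shControl ranges overlapped, had 0.17 and -0.27 in the same comparisons. ORC6 had 0.14 and -0.12, and ORC4, which is not a member, had 0.20 and -0.35. With total counts, the changes with MYC were 0.03 for ORC1, -0.07 for ORC3 and 0.08 for ORC6, and none of the 3 was called (edgeR adjusted p = 0.457, 0.349 and 0.058).

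The licensing factors CDC6 and CDT1 act together to load the MCM2-7 ring, and with MYC they moved in opposite directions. CDC6 (chr17:40287633-40304657) had 233, 246 and 249 CPM in shDHX15_MYC cells, 146, 144 and 139 CPM in shDHX15 cells and 108, 108 and 114 CPM in shControl cells. The 3 groups did not overlap, and the order from highest to lowest was shDHX15_MYC, shDHX15, shControl. CDC6 rose in shDHX15 cells against shControl cells (0.37 ± 0.04 SE, edgeR adjusted p = 4.39e-07) and rose further with MYC against shDHX15 cells (0.77 ± 0.04 SE, edgeR adjusted p = 1.49e-12). CDT1 (chr16:88803213-88809258) had 174, 179 and 178 CPM in shDHX15_MYC cells, 393, 456 and 449 CPM in shDHX15 cells and 405, 419 and 418 CPM in shControl cells. All shDHX15_MYC libraries lay far below the rest, and the shDHX15 and shControl ranges overlapped. CDT1 fell with MYC (-1.29 ± 0.04 SE, edgeR adjusted p = 1.94e-14) and had no call between shDHX15 and shControl cells (0.06, edgeR adjusted p = 0.252), although replicate 1 was the lowest shDHX15 library and without it the call was reached at 0.13. GMNN, which encodes the CDT1 inhibitor geminin, had 0.11 with MYC, with overlapping ranges, and -0.09 without a call in shDHX15 cells against shControl cells. With total counts its change with MYC was 0.31 (edgeR adjusted p = 7.25e-06).

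Among the 6 genes of the MCM2-7 ring, the helicase that unwinds DNA at the fork, MCM7 stood against its partners. MCM7 (chr7:100092728-100101940) had 1047, 1049 and 1064 CPM in shDHX15_MYC cells, 624, 631 and 633 CPM in shDHX15 cells and 646, 653 and 665 CPM in shControl cells. It rose with MYC by 0.74 ± 0.03 (SE) on the log2 scale (edgeR adjusted p = 1.77e-14), and in shDHX15 cells against shControl cells it had no call (-0.06). Of the other 5, MCM4, MCM5 and MCM6 fell with MYC (-0.58, -0.60 and -0.39), and MCM2 and MCM3 had no call (0.03 and -0.01) but were called higher with total counts (0.23 and 0.19). MCM2, MCM3 and MCM6 were lower in shDHX15 cells than in shControl cells (-0.20, -0.16 and -0.19). Part of the exonic sequence of MCM7 (10.7%) lies opposite AP4M1, and 32% of that of MCM2 opposite TPRA1 or another gene; the sources used here do not say whether counting used strand. AP4M1 itself averaged 83.7 CPM in shDHX15_MYC cells, 71.4 CPM in shDHX15 cells and 75.3 CPM in shControl cells.

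The helicase is activated by CDC45 and the 4-subunit GINS complex with the help of MCM10. GINS3 (chr16:58295080-58406144) had 57.8, 58.1 and 57.2 CPM in shDHX15_MYC cells, 23.8, 23.2 and 23.3 CPM in shDHX15 cells and 30.0, 29.4 and 28.6 CPM in shControl cells. The lowest shDHX15_MYC library was above every library of the other groups. GINS3 rose with MYC (1.30 ± 0.05 SE, edgeR adjusted p = 2.45e-14) and fell in shDHX15 cells against shControl cells (-0.32 ± 0.05 SE, edgeR adjusted p = 2.92e-05). The other GINS genes went the other way with MYC: GINS1 -0.44, GINS2 -0.50 and GINS4 -0.70. GINS1 (chr20:25407727-25452628) had 85.2, 81.6 and 83.6 CPM in shDHX15_MYC cells, 118, 110 and 111 CPM in shDHX15 cells and 69.5, 69.9 and 68.1 CPM in shControl cells. The shDHX15 libraries were the highest and the shControl libraries the lowest, and GINS1 rose in shDHX15 cells against shControl cells (0.71 ± 0.04 SE, edgeR adjusted p = 3.93e-10). GINS2 had 41.6, 40.9 and 42.5 CPM in shDHX15_MYC cells, 62.0, 55.8 and 58.7 CPM in shDHX15 cells and 73.6, 71.5 and 73.7 CPM in shControl cells. It was lower in shDHX15 cells than in shControl cells by -0.31 (edgeR adjusted p = 2.23e-05). MCM10 had 115, 117 and 122 CPM in shDHX15_MYC cells, 110.3, 109.5 and 111 CPM in shDHX15 cells and 93.7, 95.9 and 97.7 CPM in shControl cells. It rose in shDHX15 cells against shControl cells (0.20, edgeR adjusted p = 0.000134) and by 0.10 more with MYC, and CDC45 fell in the same comparisons (-0.11 and -0.55), the first without a call when total counts were used (-0.04, edgeR adjusted p = 0.407). The exons of GINS3 and GINS4 overlap genes on the other strand over 16.5% and 23.6% of their length.

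PCNA, the ring that tethers polymerases to DNA, had 561, 551 and 566 CPM in shDHX15_MYC cells, 589.5, 538 and 549.7 CPM in shDHX15 cells and 723, 712 and 722 CPM in shControl cells. It was lower in shDHX15 cells than in shControl cells (-0.36 ± 0.03 SE, edgeR adjusted p = 1.32e-07) and did not pass the test with MYC against shDHX15 cells (0.0007, edgeR adjusted p = 0.985), where the ranges overlapped; with total counts it was called higher (0.20). The 5 replication factor C genes, whose products open PCNA and load it, did not move together. RFC1, the large subunit of the canonical loader, had 211, 204 and 207 CPM in shDHX15_MYC cells, 185, 185 and 188 CPM in shDHX15 cells and 164, 156 and 158 CPM in shControl cells. It rose in shDHX15 cells against shControl cells (0.22 ± 0.03 SE, edgeR adjusted p = 1.62e-05) and with MYC against shDHX15 cells (0.16, edgeR adjusted p = 0.000118). RFC5 had 82.5, 83.0 and 84.0 CPM in shDHX15_MYC cells, 157, 153 and 149.7 CPM in shDHX15 cells and 148, 154 and 149.5 CPM in shControl cells. It fell with MYC (-0.88 ± 0.03 SE, edgeR adjusted p = 6.60e-14), as did RFC3 (-0.22) and RFC4 (-0.28), while RFC2 rose by 0.10. None of RFC2 to RFC5 was called between shDHX15 and shControl cells with TMM. With total counts, RFC3 and RFC5 were called higher there (0.17 and 0.09), and with MYC neither RFC3 (-0.02, edgeR adjusted p = 0.68) nor RFC4 (-0.08, edgeR adjusted p = 0.107) was called.

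RPA coats the unwound single strands as a complex of 3 subunits, and the levels of the 2 smaller ones parted with MYC. RPA2 had 151, 149 and 152 CPM in shDHX15_MYC cells, 114, 109 and 111 CPM in shDHX15 cells and 131, 138 and 139 CPM in shControl cells. RPA3 had 24.7, 25.3 and 24.7 CPM in shDHX15_MYC cells, 43.5, 41.0 and 40.7 CPM in shDHX15 cells and 48.6, 51.6 and 48.5 CPM in shControl cells. The groups did not overlap for either gene. With MYC against shDHX15 cells, RPA2 rose by 0.43 ± 0.03 (SE, edgeR adjusted p = 1.76e-09) and RPA3 fell by 0.75 ± 0.05 (SE, edgeR adjusted p = 1.62e-10) on the log2 scale. Both were lower in shDHX15 cells than in shControl cells (-0.29 and -0.25). RPA1, the large subunit, fell by 0.25 with MYC and had no call between shDHX15 and shControl cells. With total counts it had no call with MYC (-0.05, edgeR adjusted p = 0.128) and was called higher in shDHX15 cells than in shControl cells (0.10).

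None of the 4 polymerase alpha-primase genes was called between shDHX15 and shControl cells with TMM, and POLA1 was called higher with total counts (0.12, edgeR adjusted p = 0.0231). With MYC the catalytic polymerase gene and the catalytic primase gene moved apart. POLA1 (chrX:24693919-24996986), the polymerase subunit, had 116, 121 and 125 CPM in shDHX15_MYC cells, 71.7, 69.7 and 65.9 CPM in shDHX15 cells and 64.7, 68.7 and 65.7 CPM in shControl cells. It rose with MYC against shDHX15 cells (0.80 ± 0.04 SE, edgeR adjusted p = 5.54e-12). PRIM1 (chr12:56731596-56752373), the primase subunit, had 29.1, 32.0 and 29.2 CPM in shDHX15_MYC cells, 83.6, 74.4 and 79.4 CPM in shDHX15 cells and 85.4, 82.2 and 84.9 CPM in shControl cells. Its shDHX15_MYC libraries lay below every other library, and the fall of 1.39 ± 0.05 (SE) on the log2 scale (edgeR adjusted p = 3.84e-14) was the largest among the 46 members in that comparison. POLA2 fell by 0.66, and PRIM2 had no call (-0.10). Of the exonic sequence of PRIM1, 26.5% overlaps other genes on the same strand, among them NACA, which averaged 414 CPM in shDHX15_MYC cells, 486 CPM in shDHX15 cells and 583 CPM in shControl cells. HSD17B6, on the other strand, overlaps it as well and averaged 9.33 CPM in shDHX15_MYC cells, 19.1 CPM in shDHX15 cells and 17.1 CPM in shControl cells. For POLA2 the overlap on the same strand is 53.7%. Their part in the result was not tested.

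The 2 member genes of polymerase epsilon, the leading-strand enzyme, fell with MYC. POLE3 and POLE4, subunit genes of the same enzyme outside the members, rose (0.95 and 0.52). POLE had 357, 354 and 369 CPM in shDHX15_MYC cells, 649, 665 and 644 CPM in shDHX15 cells and 650, 643 and 646 CPM in shControl cells. It fell by 0.86 ± 0.03 (SE) against shDHX15 cells (edgeR adjusted p = 7.78e-15), POLE2 fell by 0.70, and neither was called between shDHX15 and shControl cells with TMM. Of the polymerase delta genes, the lagging-strand enzyme, POLD1 and POLD3 fell with MYC (-0.54 and -0.40), and POLD2 had no call (-0.02). POLD3 was higher (0.15) and POLD2 lower (-0.11) in shDHX15 cells than in shControl cells, the last without a call when total counts were used (-0.05, edgeR adjusted p = 0.233). LIG1, the ligase that seals Okazaki fragments, had 143, 139.5 and 139.5 CPM in shDHX15_MYC cells, 262, 278 and 271 CPM in shDHX15 cells and 260.2, 255 and 264 CPM in shControl cells. It fell with MYC by 0.94 ± 0.03 (SE, edgeR adjusted p = 1.57e-14), while FEN1, the flap nuclease of the same step, changed by -0.10, a direction that turned with total counts (0.09). The chromatin assembly genes CHAF1A and CHAF1B, subunits of the histone chaperone CAF-1, changed in opposite directions with MYC (0.34 and -0.33), and neither was called between shDHX15 and shControl cells with TMM.

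ATAD5 (chr17:30831970-30895869) had 80.0, 76.9 and 76.6 CPM in shDHX15_MYC cells, 139, 127 and 124 CPM in shDHX15 cells and 66.0, 67.6 and 65.5 CPM in shControl cells. All shDHX15 libraries lay above the rest, and the shDHX15_MYC libraries lay between those and the shControl libraries. It rose in shDHX15 cells against shControl cells (0.97 ± 0.04 SE, edgeR adjusted p = 5.66e-11) and fell with MYC against shDHX15 cells (-0.74 ± 0.04 SE, edgeR adjusted p = 2.30e-11). Without replicate 1 of the shDHX15 group the first value was 0.92. UNG, the glycosylase that removes uracil from DNA, had 178, 170.3 and 180.2 CPM in shDHX15_MYC cells, 85.9, 87.7 and 91.7 CPM in shDHX15 cells and 115, 109 and 115 CPM in shControl cells. UNG was lowest in shDHX15 cells (-0.36 ± 0.04 SE against shControl cells, edgeR adjusted p = 9.61e-07) and rose with MYC (1.00 ± 0.04 SE against shDHX15 cells, edgeR adjusted p = 6.01e-14). TIMELESS, a fork protection factor, had 159, 157 and 159 CPM in shDHX15_MYC cells, 278, 289 and 280 CPM in shDHX15 cells and 296, 306 and 307 CPM in shControl cells. CLSPN, which encodes the checkpoint adaptor claspin, had 134, 124 and 134 CPM in shDHX15_MYC cells, 104, 103 and 98.9 CPM in shDHX15 cells and 89.0, 83.8 and 83.6 CPM in shControl cells. TIMELESS fell with MYC by 0.84 and CLSPN rose by 0.36, with no overlap between groups for either gene.

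**Figure D3:**
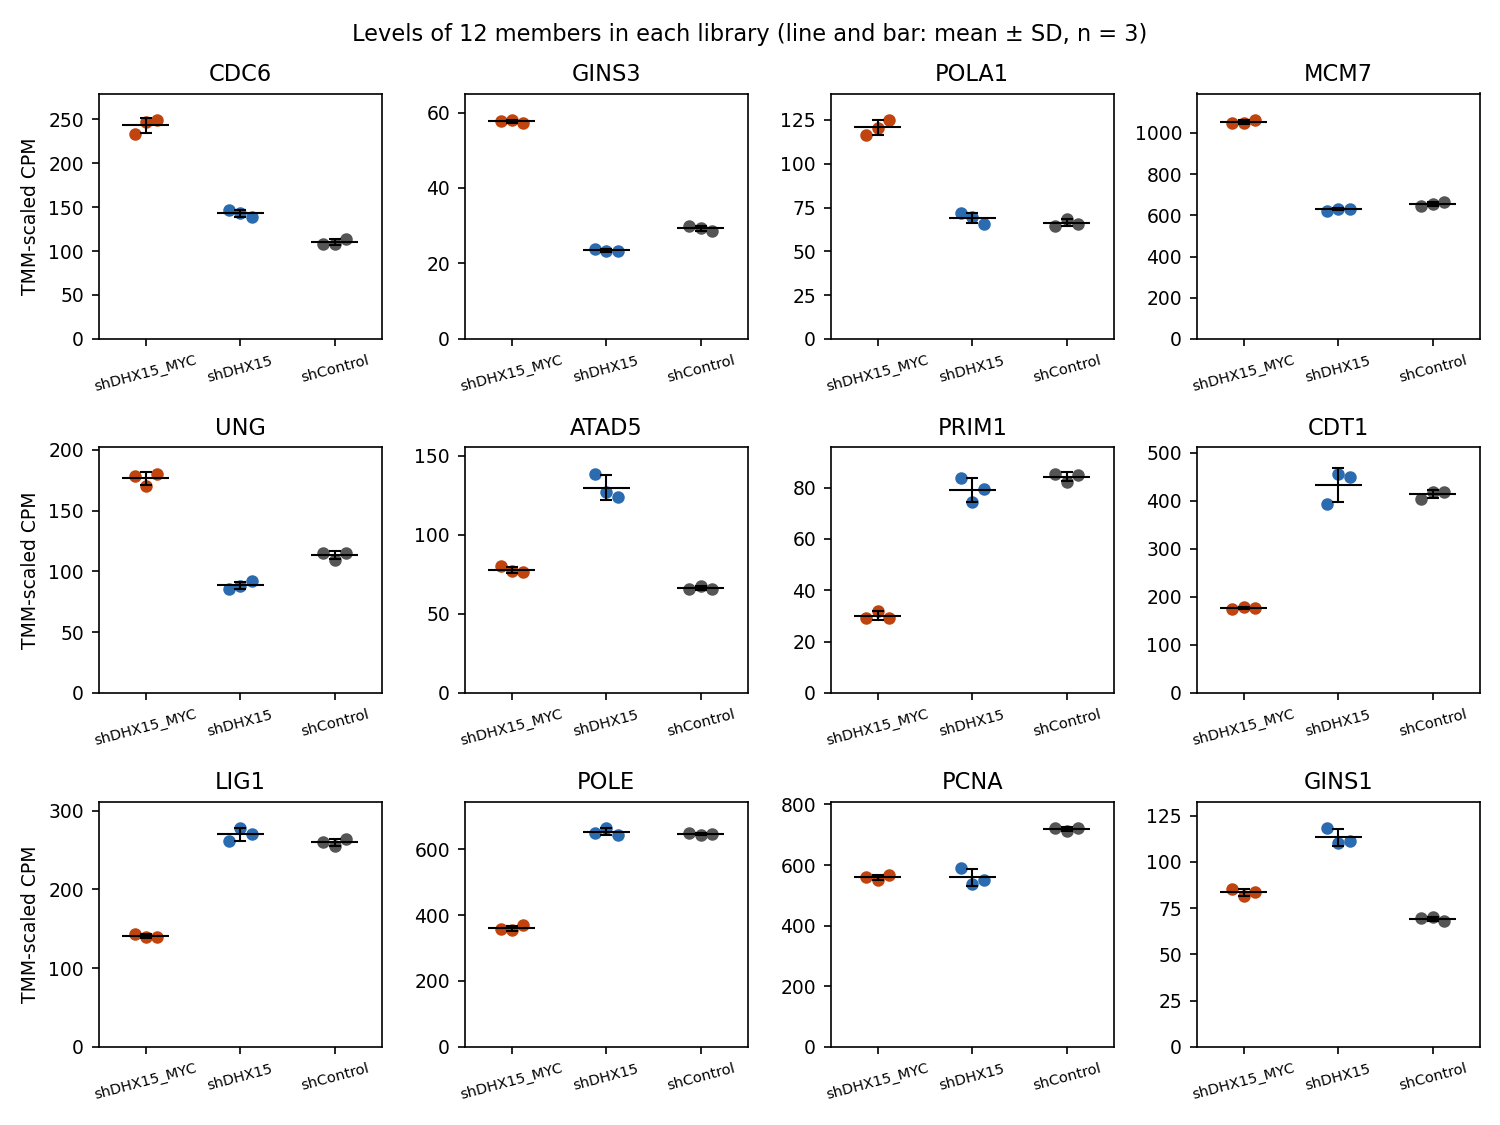
Level in TMM-scaled CPM of 12 members in each of the 9 libraries, with groups in the order shDHX15_MYC, shDHX15 and shControl; points are libraries, and line and bar are the mean and SD (n = 3). CDC6, GINS3, POLA1, MCM7 and UNG are highest in shDHX15_MYC libraries, PRIM1, CDT1, LIG1 and POLE are lowest there, and ATAD5 and GINS1 are highest in shDHX15 libraries.

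Because members of the same complex parted with MYC, the ratio of partner genes was taken within each library from counts per kilobase of exon, so that the scaling between libraries cancels. The ratios were chosen after the values were seen, with the gene that rose with MYC on top, and are a description, with no test. Of the expressed genes 33.6% rose and 54.1% fell with MYC against shDHX15 cells, so genes taken at random would often part too. Whether partners parted more often than other genes was not tested. CDC6 over CDT1 was 0.924 ± 0.0235 in shDHX15_MYC cells, 0.224 ± 0.0239 in shDHX15 cells and 0.179 ± 0.0054 in shControl cells (SD, n = 3 each). MCM7 over the mean of MCM2 to MCM6 was 2.60 ± 0.0237 in shDHX15_MYC cells, 1.30 ± 0.0246 in shDHX15 cells and 1.25 ± 0.0228 in shControl cells. In both, the shDHX15_MYC libraries stood far from the other 6, which lay close to each other. GINS3 over the mean of the other GINS genes was 1.47 ± 0.0325 in shDHX15_MYC cells, 0.422 ± 0.0144 in shDHX15 cells and 0.598 ± 0.0134 in shControl cells, so the lower ratio was that of the shDHX15 libraries. POLA1 over the mean of POLA2, PRIM1 and PRIM2 was 1.34 ± 0.0615 in shDHX15_MYC cells, 0.396 ± 0.0183 in shDHX15 cells and 0.361 ± 0.0156 in shControl cells. RPA2 over RPA3 was 6.42 ± 0.163 in shDHX15_MYC cells, 2.83 ± 0.0553 in shDHX15 cells and 2.92 ± 0.11 in shControl cells. ORC5 over the mean of ORC1, ORC2, ORC3 and ORC6 was 0.507 ± 0.0326 in shDHX15_MYC cells, 0.277 ± 0.013 in shDHX15 cells and 0.329 ± 0.0133 in shControl cells. These are ratios of transcripts and say nothing of the amounts of protein.

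**Figure D4:**
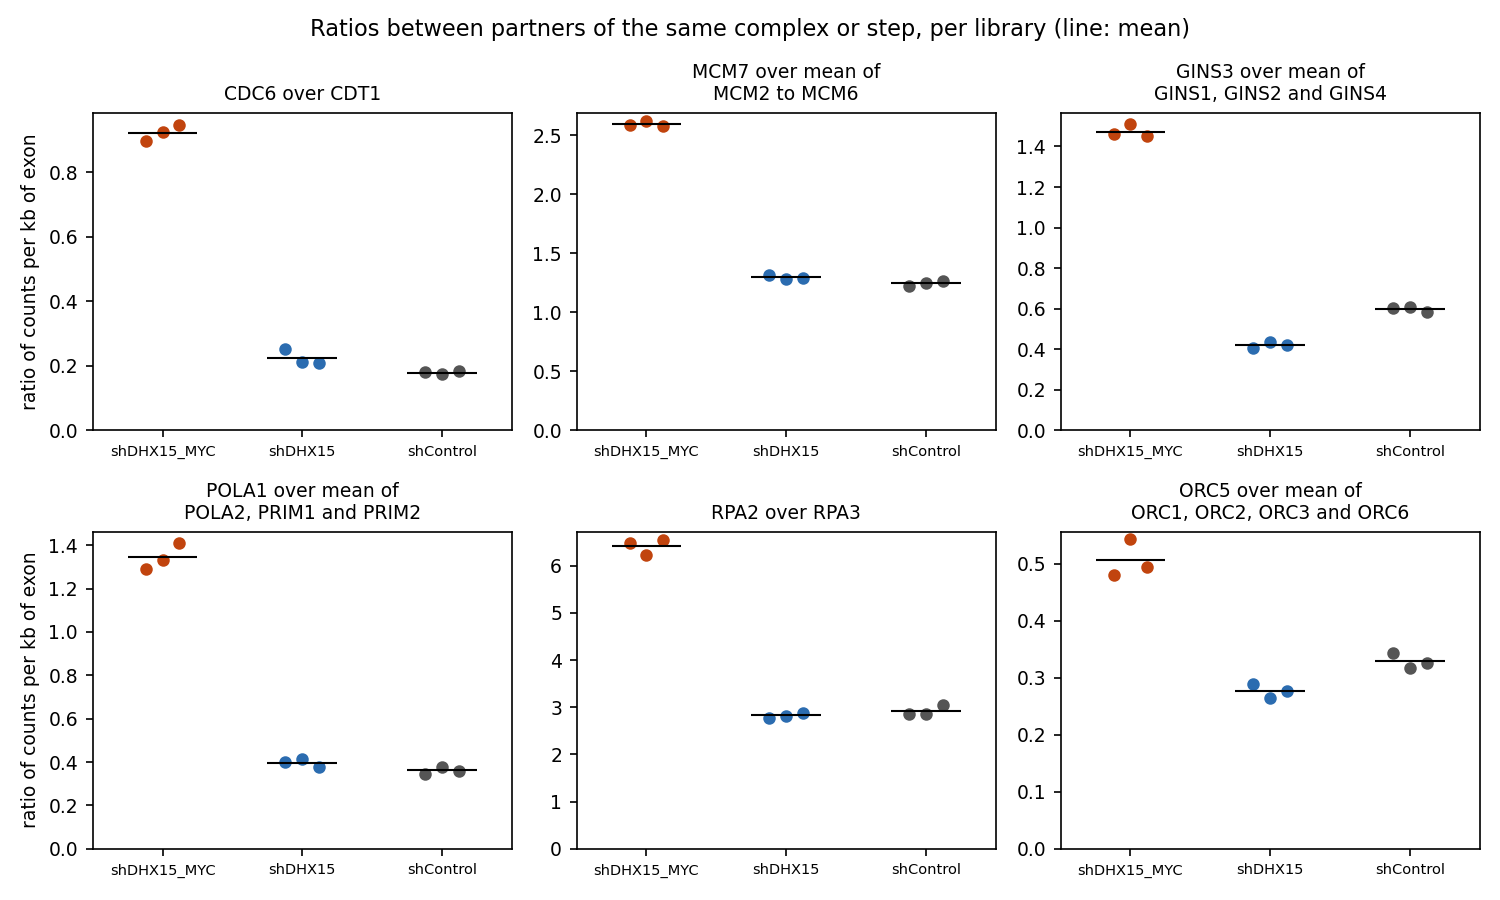
Ratio of partner genes, from counts per kilobase of exon, in each of the 9 libraries; points are libraries and the line is the group mean (n = 3). For CDC6 over CDT1 the shDHX15_MYC libraries lie at 0.899 to 0.946, the shDHX15 libraries at 0.208 to 0.251 and the shControl libraries at 0.174 to 0.184.

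Among the members, the change in shDHX15 cells against shControl cells went with exonic length, the strongest relation among the gene properties that were read. Across the 46 genes, the log2 fold change of shDHX15 cells over shControl cells had a Pearson r of 0.475 and a Spearman rho of 0.491 with exonic length, and across 9801 expressed genes with an annotation the values were 0.276 and 0.284. Across all 14536 tested genes with an annotation they were 0.04 and 0.123. The other properties, over the 46 members and in the same comparison, gave an r of -0.288 and a rho of -0.302 for GC content. For the number of exons the values were 0.24 and 0.365, and for the span of the gene 0.193 and 0.262. Genes are not independent replicates, all points share the same 6 libraries, and no p is given. Of the 15 shortest members (1359 to 2461 bases) 1 rose and 7 fell, and of the 16 longest (3744 to 7840 bases) 7 rose and 1 fell. The 15 of intermediate length had 2 higher and 6 lower. Among expressed genes of the same lengths, 16.5% rose and 35.5% fell in the shortest range, 25.5% and 27.5% in the middle range, and 35.1% and 21.4% in the longest. Taken library by library against the shControl mean, r was 0.375, 0.536 and 0.493 in the shDHX15 libraries, and without ATAD5 and GINS1 it was 0.462 over 44 genes. With MYC against shDHX15 cells, r was -0.086 over the members. For shDHX15_MYC cells over shControl cells, where DHX15 was also depleted, r was 0.116 and rho 0.054. Library by library, r was 0.127, 0.097 and 0.126 in the shDHX15_MYC libraries, so the relation was weak in that group. Whether RNA quality or library preparation has a part in the relation was not tested.

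**Figure D5:**
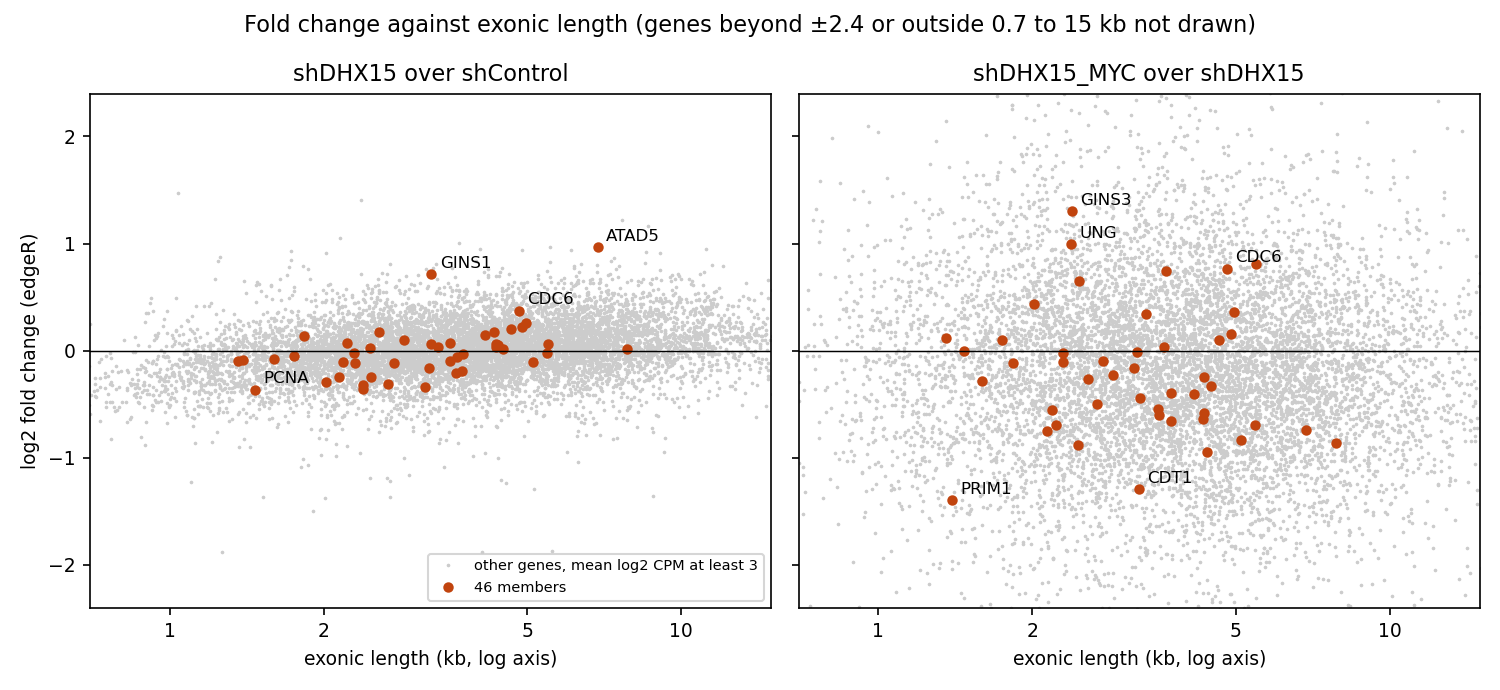
Log2 fold change against exonic length (kb, log axis) for the 46 members and for the other expressed genes (mean log2 CPM of 3 or more), for shDHX15 over shControl (left) and shDHX15_MYC over shDHX15 (right). On the left the members climb with length (r = 0.475), and on the right they show no such slope (r = -0.086).

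Further genes of the replication pathway gave the setting, taken from lists of known genes. The shares below are read beside those of the expressed genes, of which 28.2% were higher and 27.6% lower in shDHX15 cells than in shControl cells, and 33.6% higher and 54.1% lower with MYC against shDHX15 cells. Of 40 other replication factors, 17 were higher (42.5%) and 6 lower (15%) in shDHX15 cells than in shControl cells, and 14 rose (35%) and 21 fell (52.5%) with MYC against shDHX15 cells, where total-count scaling gave 20 and 17. In the first comparison RIF1, a regulator of origin timing, was among those that rose (0.56), and POLE4, an accessory subunit of polymerase epsilon, among those that fell (-0.40). With MYC, TIPIN, the partner of TIMELESS, rose by 1.20 and POLE3 by 0.95, while CHTF18, the large subunit of an alternative clamp loader, fell by 1.77, POLD4 by 1.75 and RNASEH2B, a subunit of the ribonuclease that removes ribonucleotides from DNA, by 1.64. TIPIN and TIMELESS, which act as a complex, thus moved in opposite directions (1.20 and -0.84), as did POLE3 and POLE (0.95 and -0.86).

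Of 10 genes of deoxynucleotide supply, 3 were higher (30%) and 1 lower (10%) in shDHX15 cells than in shControl cells, or 6 and 1 with total counts, and with MYC against shDHX15 cells 1 rose (10%) and 8 fell (80%). Those that fell with MYC included DCK (-2.18), a salvage kinase, TK1 (-0.73) and RRM2 (-0.46), the small subunit of ribonucleotide reductase. SAMHD1, which degrades deoxynucleotides, rose with MYC by 1.57 and was also higher in shDHX15 cells than in shControl cells (0.79). Of 15 genes of E2F and G1/S control, 6 were higher (40%) and 3 lower (20%) with depletion, and CCNE1, cyclin E1, was among those that rose (0.48). With MYC, 3 rose (20%) and 7 fell (46.7%), or 7 and 5 with total counts: the phosphatase gene CDC25A rose by 1.50 and E2F3 by 0.34, while CDK2 (-0.94), CCNA2 (-0.96), RB1 (-0.95) and E2F1 (-0.65) fell.

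Of 12 fork repair genes, 10 were higher (83.3%) and none lower in shDHX15 cells than in shControl cells by the edgeR test, with BRCA2 at 0.51 and BRCA1 at 0.32. Of 16 mitotic genes, 10 were higher (62.5%) and 1 lower (6.25%), with CENPE at 1.16 and HMMR at 0.70. With MYC against shDHX15 cells, 5 fork repair genes rose (41.7%) and 6 fell (50%), or 6 and 5 with total counts. With MYC 1 mitotic gene, MKI67, rose (0.22) while 15 fell (93.8%), among them BUB1 (-1.50). Total-count scaling gave 2 higher and 14 lower, with KIF11 called higher (0.09). Summed, the mitotic genes had 2599 to 2614 CPM in shDHX15_MYC cells, 3608 to 3788 CPM in shDHX15 cells and 3222 to 3261 CPM in shControl cells.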

How the data were processed

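Poly(A)+ RNA from 9 KOPTK1 libraries, 3 per group, was sequenced as 150 bp paired-end reads, per the labels' protocols. The deposited table holds raw counts per gene symbol, which the authors made before any normalization, and 0 columns of other samples were present. FastQC 0.11.9, HISAT2 2.2.1, DESeq2 1.32.0 and build hg38 are listed per the submitters' processing notes; not given in the sources used here are the counting program, its annotation and its strand setting. Columns were joined to samples by name, reading the GFP hairpin as the control and hairpin 1 as the DHX15 hairpin, and the DHX15 and MYC levels bear on that reading.

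Counts were tested with edgeR 4.0.16 in R 4.3.3 (filterByExpr, TMM factors, quasi-likelihood F test, 1 mean per group, all 9 libraries, Benjamini-Hochberg adjustment over 15309 genes, threshold 0.05); the SE of a log2 fold change was derived from its F statistic. The fit was tested on simulated counts with known changes. CPM used TMM-scaled library sizes. Values per library are given for the 6 called members at each end of the log2 fold change scale in each comparison, and genes of the further lists are up to 4 per direction with the smallest adjusted p. The members, gene lists and tests were chosen with earlier results of these data known. Lengths, loci and overlaps are from GENCODE release 29 (GRCh38), with exonic length as the union of basic transcripts' exons; promoters are from RefSeq (GRCh38.p14). Alternatives were other size factors, no filter, DESeq2 1.42.0, only the 6 libraries compared, a replicate block and leaving out each library. Same-numbered libraries of different groups did not deviate together (r of -0.03 to 0.03). The floor of 3 counts covers counting error only.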

Additional observations from a re-analysis of the deposited data

How the results depend on the processing

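Scaling by total counts moved the median log2 fold change of all genes to 0.06 (shDHX15 over shControl), 0.20 (shDHX15_MYC over shDHX15) and 0.28 (shDHX15_MYC over shControl), and the share of higher calls among all calls to 64.1%, 58.9% and 62.4%, against 48.8%, 49.7% and 49.7% with TMM. Members called higher became 20 in shDHX15 cells and 22 in shDHX15_MYC cells against shControl cells, and members called lower in the last comparison became 19. Among members called under at least 1 of the 2 scalings, the log2 fold changes that turned positive were, for shDHX15_MYC over shDHX15, ORC1 0.033, ORC6 0.084, MCM3 0.19, POLD2 0.18 and FEN1 0.094, and for shDHX15_MYC over shControl, ORC3 0.17, MCM2 0.094, MCM3 0.093, RFC3 0.15, RPA1 0.052, PRIM2 0.054, POLD2 0.14, POLD3 0.0058 and FEN1 0.14. PRIM2 for shDHX15_MYC over shDHX15, and MCM7, GINS4, RFC2, POLA2 and FEN1 for shDHX15 over shControl, turned positive without a call under either scaling. The cause was not tested. For the further gene lists, the scaling was varied as a choice made after seeing the data. No direction of a called member turned under the RLE size factors, without the filter, with DESeq2, with only 6 libraries or with the replicate block.

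Leaving out each library in turn gave 8 to 14 members higher and 12 to 18 lower for shDHX15 over shControl, with both maxima without shDHX15 replicate 1. Without that library CDT1 (0.13) and GMNN (-0.16) were among 9 members newly called, and ORC3 lost its call (edgeR adjusted p = 0.0549). The ranges were 11 to 13 higher and 27 to 29 lower for shDHX15_MYC over shDHX15, and 13 higher and 28 to 29 lower for shDHX15_MYC over shControl. All genes called ranged over 5958 to 7566, 12635 to 13144 and 12543 to 13346 in the same order of comparisons. With the replicate number as a block, 9 members were higher and 14 lower for shDHX15 over shControl, and 6748 genes were called in all; 1 member lost its call and no other member call changed in any comparison. The numbers share no stated origin, so this block is no pairing by design. The design holds 1 hairpin and 1 cell line, no MYC group with the control hairpin, and no measure of cell cycle phase.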
